A study of Homo sapiens with 6 samples.

Results

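The Frizzled receptor family comprised 10 genes, FZD1 to FZD10, taken by name from a table of 58830 genes. All 10 passed the filter on low values used for testing, at least 1 TPM (a read count scaled for gene length and library total) in at least 3 of the 6 libraries. Total RNA was sequenced from the human embryonic stem cell line HuES8 after 3 days of differentiation towards definitive endoderm, the germ layer that gives rise to gut, liver and pancreas. Both groups received 100 ng/mL Activin A for all 3 days in DMEM-F12 with 0.2% BSA, and on the first day also 2.5 µM CHIR, an inhibitor of GSK3 by which Wnt signalling is switched on below the receptor. The groups were 3 wild-type libraries (labelled DE) and 3 libraries with knockdown of GATA6-AS1, a long noncoding RNA antisense to GATA6 (labelled KD). The sources used here do not give the means of knockdown or say if a control construct was used. All libraries came from 1 cell line, and no label says whether replicates were separate cultures. The p-values thus cover the spread among these libraries alone, and that spread may be technical.

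Frizzled proteins are multi-pass membrane receptors whose extracellular cysteine-rich domain binds Wnt ligands. With LRP5 or LRP6 they stabilise beta-catenin through dishevelled, and with co-receptors such as ROR2 they act on cell polarity and movement. The ubiquitin ligases RNF43 and ZNRF3 remove them from the cell surface, and R-spondins acting through LGR receptors oppose that removal. Wnt signalling is required early in endoderm formation, when cells pass through a primitive streak stage. By sequence the family falls into the subfamilies FZD1, FZD2 and FZD7, FZD5 and FZD8, FZD4, FZD9 and FZD10, and FZD3 and FZD6.

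The libraries held between 18640822 and 24510593 reads in matched genes, estimated from the steps between low TPM values. GATA6-AS1 had 388, 421 and 313 TPM in the wild type and 179.7, 163 and 126 TPM after knockdown. The groups did not overlap, and the RNA fell (log2 change -1.26, limma adjusted p = 0.0128). GATA6, the transcription factor gene beside it, had 346 ± 52.8 and 218 ± 30.6 TPM (SD, n = 3 for both) and fell in the fit with the replicate number added as a block (limma adjusted p = 0.005004, against 0.0648 without it). Transcripts of mitochondrial DNA took 38.04% and 36.2% of TPM in replicate 3 of the wild type and of the knockdown, against 24.6% to 28.8% in the other 4 libraries. All 10 Frizzled genes had the lowest value of each group in replicate 3. With TPM recomputed without mitochondrial genes, FZD8 did not (155, 167 and 157 in the wild type, 102, 96.3 and 97.8 after knockdown). Nor did FZD10 after knockdown (7.01, 7.16 and 7.51). Of 8 endoderm markers 5 fell, and their summed level, mostly CER1, was 24729 to 28273 TPM in the wild type and 17922 to 19674 TPM after knockdown. Of 6 stem cell markers 4 rose, and their sum was 2392 to 3034 and 3110 to 3571 TPM. Over all genes tested 1.5% were called lower and 1.77% higher. Of 4 mesoderm markers tested 1 rose, KDR, and 1 fell, HAND1, and the list sums, mostly KDR, overlapped (116 to 152 and 150.4 to 165 TPM). Of 3 trophoblast and amnion markers tested 1 rose and 1 fell, with list sums of 61.02 to 65.7 and 44.96 to 48.6 TPM. The one that fell was GATA3 (40.5 ± 3.95 and 17.0 ± 2.40 TPM) and the one that rose TFAP2C (13.2 ± 1.08 and 22.3 ± 1.49 TPM), so the sum does not speak for the list. Of 2 neuroectoderm markers tested 0 passed, with list sums, mostly ZIC1, of 26.3 to 30.5 and 32.3 to 34.4 TPM. The summed levels of 6 fibroblast feeder genes overlapped (31.9 to 42.5 and 29.01 to 40.5 TPM), and 4 of them averaged under 1 TPM. The part of these shifts in the Frizzled results was not tested. In such bulk samples, fewer cells of a type and less RNA per cell cannot be told apart.

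The first question was which receptors the endoderm expressed. FZD5 and FZD7 were the main Frizzled transcripts, and both groups had the same 4 genes at the top in the same order, FZD5, FZD7, FZD8 and FZD2. The wild-type means were 317 ± 60.1 TPM for FZD5, 235 ± 63.2 TPM for FZD7, 111 ± 14.3 TPM for FZD8 and 63.3 ± 12.2 TPM for FZD2 (SD, n = 3 each). By these means FZD5 lay above 98.4% of the genes tested, FZD7 above 97.6%, FZD8 above 93.7% and FZD2 above 87.4%. FZD6, FZD4 and FZD3 followed at 19.9 ± 3.93, 18.99 ± 5.46 and 11.2 ± 2.71 TPM, and FZD1, FZD10 and FZD9 were low at 4.88 ± 0.8896, 3.86 ± 0.609 and 2.14 ± 0.637 TPM. TPM are per length, so these levels can be compared between genes as far as the length used matches the transcripts expressed. FZD3, with 13787 exonic bases, rested on 747 to 1222 estimated reads per library, and FZD2, with 2112, on 615 to 1102.

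Not every step in this order was larger than the spread between libraries. In the wild type the ranges of FZD5 and FZD7 overlapped, although FZD5 was the higher of the pair in each of the 6 libraries. FZD6 overlapped FZD4, FZD4 overlapped FZD3, and FZD1 overlapped FZD10, while the other neighbours stood apart. After knockdown the same pairs overlapped, with the mean of FZD10 now above that of FZD1. FZD5 rested on 9033 to 16096 estimated reads per library, and FZD9 on only 25 to 43.

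**Figure D1:**
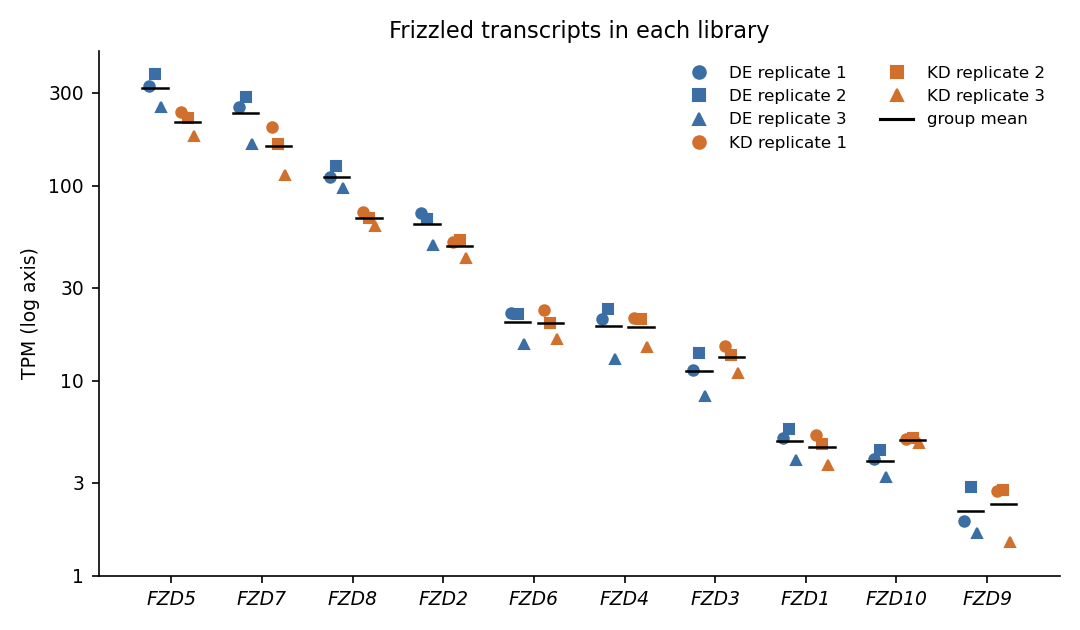
TPM of each Frizzled gene (log axis) in the 3 wild-type libraries (DE) and the 3 knockdown libraries (KD), ordered by the wild-type mean, with a marker shape for each replicate number and a bar for the group mean. The levels span from FZD5, 317 TPM on average in the wild type, to FZD9 at 2.14 TPM, and replicate 3 is lowest in every group. FZD5, FZD8 and FZD10 show no overlap between groups, as do 20.8% of all genes tested.

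Most Frizzled genes are compact, and in the GENCODE 29 annotation of GRCh38 FZD1, FZD2, FZD7, FZD8, FZD9 and FZD10 have a single exon. FZD5 (ENSG00000163251.3) lies at chr2:207762586-207769563 on the minus strand and FZD7 (ENSG00000155760.2) at chr2:202034587-202038445 on the plus strand. FZD8 (ENSG00000177283.7) lies at chr10:35638249-35642278 on the minus strand, and its exon contains the microRNA gene MIR4683. FZD2 (ENSG00000180340.6) lies at chr17:44557459-44559570 and FZD10 (ENSG00000111432.4) at chr12:130162459-130165740, both on the plus strand. FZD4 (ENSG00000174804.3, chr11:86945679-86955391, minus strand) shares 1399 exonic bases with PRSS23 on the other strand, and FZD6 shares 138 with BAALC-AS1. PRSS23 had 1.42 to 2.88 TPM and BAALC-AS1 0.878 to 1.33 TPM over the 6 libraries. No source used here says whether the counting used strand, so reads from those shared bases cannot be told apart.

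The start regions of FZD5 and FZD8 are shown with that of FZD4, whose mean was nearly level, so that their make-up can be compared. FZD5 and FZD8, a related pair, were lower after knockdown without overlap between groups, as were 10.7% of all genes tested. RefSeq start regions (GRCh38.p14, 250 bases before to 50 after the start) were matched for 5 of 10 members, FZD1, FZD4, FZD5, FZD8 and FZD9. The 250 bases before each start are printed 5′ to 3′ on the gene's strand, and capitals mark CCAAT (seen here as its reverse complement ATTGG) and, in FZD8, a TATAAA. They lie at chr2:207769907-207770156 for FZD5, chr10:35642297-35642546 for FZD8 and chr11:86955396-86955645 for FZD4, all on the minus strand.
FZD5: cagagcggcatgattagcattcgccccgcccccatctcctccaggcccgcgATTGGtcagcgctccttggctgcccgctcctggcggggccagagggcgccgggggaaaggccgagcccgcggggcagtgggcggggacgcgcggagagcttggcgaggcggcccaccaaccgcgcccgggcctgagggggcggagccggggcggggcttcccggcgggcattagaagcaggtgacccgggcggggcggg
FZD8: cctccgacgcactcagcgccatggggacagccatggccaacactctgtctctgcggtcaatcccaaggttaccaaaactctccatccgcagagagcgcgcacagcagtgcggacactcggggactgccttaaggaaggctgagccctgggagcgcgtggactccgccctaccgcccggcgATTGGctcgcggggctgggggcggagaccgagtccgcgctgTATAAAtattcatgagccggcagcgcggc
FZD4: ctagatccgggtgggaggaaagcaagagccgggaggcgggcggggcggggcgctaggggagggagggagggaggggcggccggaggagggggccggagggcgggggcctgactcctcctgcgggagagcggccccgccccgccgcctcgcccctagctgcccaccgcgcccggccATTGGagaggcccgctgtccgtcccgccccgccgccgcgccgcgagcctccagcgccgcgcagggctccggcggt
The RefSeq start of FZD5 lies 343 bases upstream of the GENCODE 29 start, that of FZD8 18 and that of FZD4 4.

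All 3 regions were rich in CpG. Over the window of 300 bases, G and C made up 77% of the FZD5 region, 67% of the FZD8 region and 79.7% of the FZD4 region, against a median of 58.7% over 35116 RefSeq windows. The observed to expected ratio of CpG was 0.866, 0.922 and 0.853, against a median of 0.579. Short letter patterns were searched on both strands, and the ones marked in the printed sequences were chosen after those were seen. CCAAT occurred once each in FZD1, FZD4, FZD5 and FZD8 and not in FZD9, while 34.6% of all windows held it. TATAAA occurred in FZD8 alone of the 5, beginning 29 bases before the start site, and in 11.5% of all windows. GGGCGG, the core of GC boxes, occurred 6 times each in FZD5 and FZD4 and 3 times in FZD8, and in 44.95% of all windows. CTTTGA, a core of TCF and LEF sites, was in 0 of these 5 windows and in 12.9% of all windows. The GATA factor cores AGATAA and TGATAA were in 0 of 5 and, either of them, in 16.3% of all windows. The forkhead core TGTTTAC was in 0 of 5 and in 3.42% of all windows. A match is a description of the letters and not a site, and the CCAAT match was as present in FZD4 and FZD1 as in FZD5 and FZD8.

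The main question was whether receptor transcripts differed after GATA6-AS1 knockdown. The means of the 4 abundant genes differed by -22.7% (FZD2) to -38.8% (FZD8), and those of the other 6 by -6.48% (FZD1) to 28.8% (FZD10). Tested over all 17711 genes that passed the filter, 1 of 10 Frizzled genes fell, FZD8, and 0 rose (limma on log2(TPM + 1), Benjamini-Hochberg adjusted p under 0.05). In this comparison 3.27% of all genes tested were called, 1.5% lower and 1.77% higher. After removal of group means, same-numbered libraries correlated at 0.108, 0.144 and 0.347, above the limit of 0.1 for pairs. No label gives pairs, and the unmatched wild-type replicate 2 and knockdown replicate 1 reached 0.121, so values with the block assume pairing. With the replicate number as a block 4 of 10 fell, FZD5, FZD7, FZD8 and FZD2, and again 0 rose. With the block 12.5% of all genes tested were called, 6.62% lower and 5.88% higher. Without replicate 3 of both groups, the same 4 of 10 genes fell in the fit without a block, in which 1212 of all 17711 genes passed. Among genes of at least 50 mean TPM, a limit chosen after the values were seen and which only these 4 Frizzled genes reach, 2.18% were called lower and 10.5% with the block. The median log2 change of the 10 genes was -0.04, against -0.01 over all genes tested.

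FZD8, a receptor expressed in anterior endoderm of the embryo, was the member that passed in both fits. Its values were 111, 126 and 97.2 TPM in the wild type and 73.4, 68.6 and 62.4 TPM after knockdown. The knockdown libraries all lay below the lowest wild-type library, and they were also closer to each other. The mean went from 111 ± 14.3 to 68.1 ± 5.52 TPM (SD, n = 3 for both), and the log2 change was -0.70 (SE 0.12, 95% interval -0.98 to -0.41). The fall passed over all genes (limma adjusted p = 0.0298, with the replicate block 0.00388), but not when genes of low level were kept in the test (0.0722). With a library left out the limma adjusted p was 0.142, 0.0869 or 0.0228 without wild-type replicate 1, 2 or 3, and 0.0762, 0.1403 or 0.0884 without knockdown replicate 1, 2 or 3. The log2 change lay between -0.79 and -0.60 in these 6 fits. The 2-sided exact permutation test of the TPM values gave p = 0.1 (the lowest value possible with 3 and 3 libraries) for FZD8, FZD5 and FZD10 alike.

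FZD5, the closest relative of FZD8 and the most abundant member here, had 324, 374 and 254 TPM in the wild type and 239, 222 and 179 TPM after knockdown. The groups did not overlap, but wild-type replicate 3 came close to knockdown replicate 1. The mean was 317 ± 60.1 TPM in the wild type and 213 ± 30.7 TPM after knockdown (SD, n = 3 for both), with a log2 change of -0.56 (SE 0.17, 95% interval -0.96 to -0.17). Over all genes it did not pass (limma adjusted p = 0.149), and it fell with the replicate block (limma adjusted p = 0.00714). The ratio of knockdown to wild type was 0.737, 0.595 and 0.706 in the 3 same-numbered pairs. When TPM were recomputed without mitochondrial genes, the values were 453, 496 and 410.2 in the wild type and 333, 312 and 281 after knockdown. The limma adjusted p was then 0.0155 without any block.

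FZD7, known for its high expression in human embryonic stem cells, had 254, 287 and 165 TPM in the wild type and 201, 164 and 113 TPM after knockdown. Here the groups overlapped, since wild-type replicate 3 was level with knockdown replicate 2 and below knockdown replicate 1. The log2 change was -0.56 (SE 0.26, 95% interval -1.18 to 0.06) and did not pass (limma adjusted p = 0.3899). Within the same-numbered pairs the knockdown library stood at 0.792, 0.573 and 0.688 of the wild-type library, and with the replicate block the gene fell (limma adjusted p = 0.01599). Without mitochondrial genes, and with no block, the limma adjusted p was 0.151.

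FZD2, of the same subfamily as FZD7, had 72.9, 67.6 and 49.6 TPM in the wild type and 51.6, 52.4 and 42.8 TPM after knockdown. Wild-type replicate 3 again lay among the knockdown libraries. The log2 change was -0.35 (SE 0.16, 95% interval -0.74 to 0.03, limma adjusted p = 0.377), and with the replicate block FZD2 fell (limma adjusted p = 0.0305). The pair ratios were 0.708, 0.776 and 0.864. FZD5, FZD7, FZD8 and FZD2 were thus lower after knockdown in 3 of 3 pairs, as were 25.7% of all genes tested. After median-ratio scaling without a block, where 1753 of all genes passed, FZD2 was called lower (limma adjusted p = 0.0406), as were FZD5 (0.00856) and FZD8 (0.00172) but not FZD7 (0.111).

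**Figure D2:**
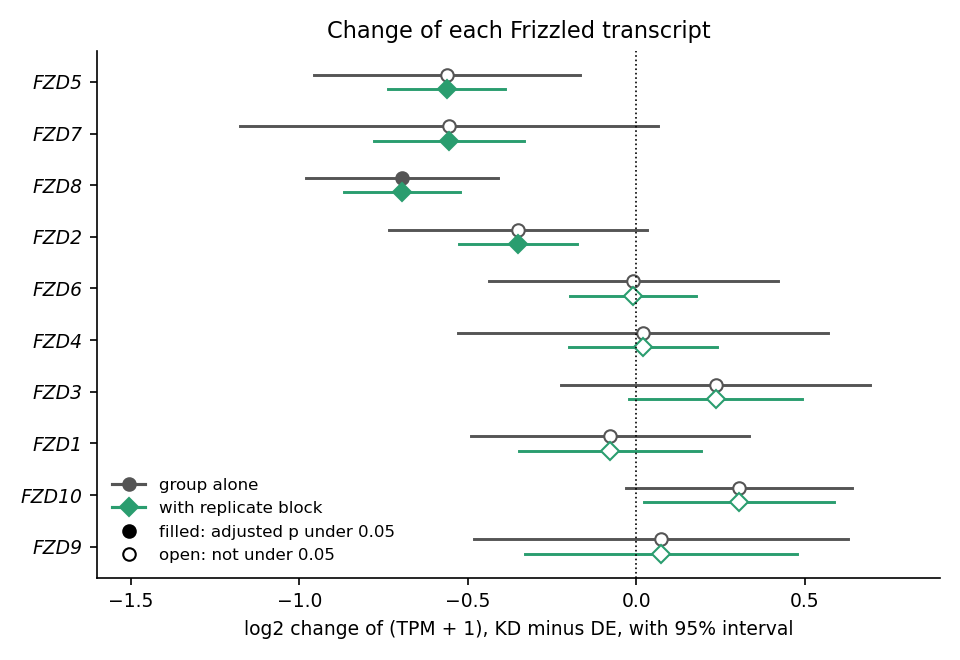
Log2 change of TPM + 1 (KD, knockdown, minus DE, wild type) with its 95% interval for each Frizzled gene, from limma with group alone (circles) and with the replicate number as a block (diamonds), filled where the adjusted p over all genes was under 0.05. FZD8 is filled in both fits at -0.70, FZD5, FZD7 and FZD2 in the fit with the block, and the intervals of FZD6, FZD4, FZD3, FZD1 and FZD9 span 0 in both. That of FZD10, open in both fits, spans 0 with group alone (-0.03 to 0.64) and lies above 0 with the block (0.02 to 0.59).

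FZD10 was the only member whose knockdown libraries all lay above the wild-type libraries. It had 3.96, 4.41 and 3.21 TPM in the wild type and 5.03, 5.099 and 4.79 TPM after knockdown, which rested on 93, 93 and 68 estimated reads in the wild type and 93, 109 and 127 after knockdown. The log2 change of 0.30 (SE 0.14, 95% interval -0.03 to 0.64) did not pass in either fit (limma adjusted p = 0.385, with the replicate block 0.152). With the block the 95% interval, which is not adjusted for the number of genes tested, was 0.02 to 0.59. It was higher in 3 of 3 pairs, as were 23.2% of all genes tested. Groups that did not overlap were seen in 3 of 10 Frizzled genes, FZD5 and FZD8 lower and FZD10 higher, and in 20.8% of all genes tested (10.7% lower, 10.1% higher). FZD10-AS1, a noncoding gene 202 bases from FZD10 on the other strand with no overlap, had 2.796, 2.34 and 2.01 TPM in the wild type and 2.61, 2.58 and 2.63 TPM after knockdown. Its groups overlapped, and its log2 change was 0.10 (95% interval -0.26 to 0.46).

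FZD3, which with FZD6 forms the subfamily tied to planar cell polarity, had 11.3, 13.8 and 8.39 TPM in the wild type and 15.1, 13.6 and 10.96 TPM after knockdown. The ranges overlapped, and the log2 change was 0.24 (95% interval -0.22 to 0.69, limma adjusted p = 0.7105, with the replicate block 0.211). FZD6 had 22.4, 22.00 and 15.4 TPM in the wild type and 22.9, 19.8 and 16.4 TPM after knockdown, with a log2 change of -0.01 (95% interval -0.44 to 0.42). FZD4, the receptor of norrin in retinal vessels, had 20.7, 23.4 and 12.9 TPM in the wild type and 21.1, 20.8 and 14.9 TPM after knockdown. The groups overlapped in both genes, and their pair ratios lay between 0.887 and 1.16. With the replicate block the 95% interval was -0.20 to 0.18 for FZD6 and -0.20 to 0.24 for FZD4 (log2 change 0.02). Without the block that of FZD4 was -0.53 to 0.57.

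FZD1, the low member of the FZD7 subfamily, had 5.08, 5.66 and 3.91 TPM in the wild type and 5.25, 4.74 and 3.71 TPM after knockdown. Its log2 change was -0.08, with a 95% interval of -0.49 to 0.33 (-0.35 to 0.19 with the replicate block). FZD9 had 1.91, 2.86 and 1.66 TPM in the wild type and 2.73, 2.76 and 1.48 TPM after knockdown. Its log2 change was 0.07 (SE 0.24, 95% interval -0.48 to 0.63), on 25 to 43 estimated reads per library. Both genes overlapped between groups. FZD1, FZD3, FZD4, FZD6 and FZD9 did not pass in either fit, with limma adjusted p from 0.7105 to 0.995 without the block.

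Summed over the family, Frizzled TPM were 827, 926 and 611 in the wild type and 637, 574 and 450.0 after knockdown. The means were 788 ± 161 and 554 ± 95.1 TPM (SD, n = 3 for both), a ratio of 0.703, and wild-type replicate 3 lay below knockdown replicate 1. FZD5 with FZD8 gave 429 ± 74.3 TPM in the wild type and 282 ± 36.2 TPM after knockdown, without overlap. FZD1, FZD2 and FZD7 together gave 303 ± 75.1 and 213 ± 49.6 TPM, with overlap. The ranges also overlapped for FZD3 with FZD6 (31.1 ± 6.43 and 32.9 ± 5.35 TPM) and for FZD4, FZD9 and FZD10 (25.00 ± 6.605 and 26.2 ± 4.34 TPM). The sum was given no test.

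Shares of the sum within a library do not depend on how the library was scaled. FZD5 made up 40.4% ± 1.203 of the sum in the wild type and 38.7% ± 1.18 after knockdown, FZD7 29.5% ± 2.25 and 28.4% ± 3.202, and FZD8 14.3% ± 1.397 and 12.4% ± 1.25 (SD, n = 3 each). These shares overlapped between groups. FZD3 with FZD6 made up 3.94% ± 0.115 in the wild type and 5.95% ± 0.138 after knockdown, and FZD4, FZD9 and FZD10 made up 3.14% ± 0.212 and 4.74% ± 0.231. Both of these smaller subfamilies had a larger share in every knockdown library than in any wild-type library. A share is larger when the rest of the sum is smaller, so these shares are not separate from the lower levels of the abundant members. The mean TPM of both smaller subfamilies was also slightly higher after knockdown, with overlap (ratios of 1.06 for FZD3 with FZD6 and 1.05 for FZD4, FZD9 and FZD10). The part of each in the shares was not tested.

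**Figure D3:**
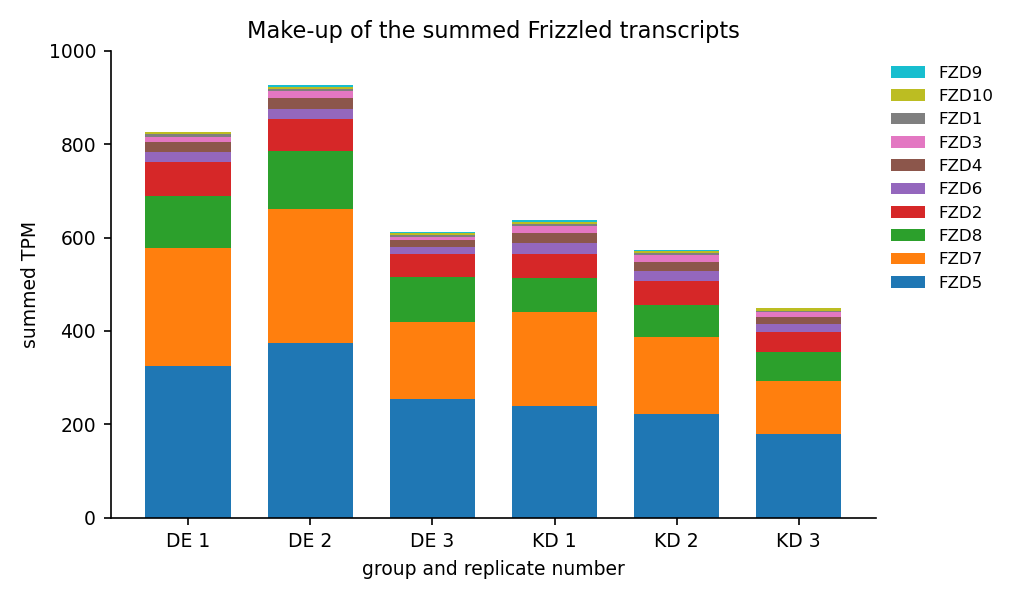
Summed TPM of the 10 Frizzled genes in each library, stacked by gene, for replicates 1 to 3 of the wild type (DE) and of the knockdown (KD). The sum runs from 926 TPM in wild-type replicate 2 to 450.0 TPM in knockdown replicate 3, and FZD5 and FZD7 fill most of every bar.

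Ratios between members, chosen after their values were seen and given no test, are likewise free of library scaling. The ratio of FZD5 to FZD6 was 14.5, 16.99 and 16.5 in the wild type and 10.4, 11.3 and 10.95 after knockdown. The ratio of FZD7 to FZD4 was 12.3, 12.2 and 12.8 in the wild type and 9.54, 7.91 and 7.57 after knockdown, so the groups overlapped in the level of FZD7 but not in this ratio. The ratio of FZD8 to FZD4 was 5.37, 5.37 and 7.54 in the wild type and 3.48, 3.301 and 4.17 after knockdown, also without overlap. By contrast the ratio of FZD5 to FZD7 was 1.28, 1.303 and 1.54 in the wild type and 1.19, 1.35 and 1.58 after knockdown, and the groups overlapped. In each group that ratio was highest in replicate 3.

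The other genes of the pathway were taken from lists by role. Of 84 such genes 56 were tested, of which 2 rose and 4 fell (4 rose and 14 fell with the replicate block), with a median log2 change of -0.05. Over all genes tested 1.77% rose and 1.5% fell (5.88% and 6.62% with the block), with a median of -0.01. The counts of the single lists below are to be set against these shares. With no filter on low levels, T alone of the 6 Wnt genes called passed without the block. Some genes that passed with the block also passed without it after median-ratio scaling, among them WNT3, WLS, ADGRA2, SHISA3, FRZB, DKK3, APC and AXIN2 (limma adjusted p from 0.005498 to 0.0338). Among 19 Wnt ligands, 12 averaged under 1 TPM, 7 were tested and 0 passed without the block. WNT3, a ligand of the primitive streak and the most abundant here, had 49.8 ± 5.603 TPM in the wild type and 68.1 ± 1.87 TPM after knockdown (SD, n = 3 for both). It was higher in every knockdown library (limma adjusted p = 0.0767) and rose with the replicate block (0.0164). WNT11, a ligand of the polarity branch, had 3.32 ± 0.904 and 1.75 ± 0.582 TPM and fell with the block (limma adjusted p = 0.2397 without it, 0.0392 with it). WNT5A, another ligand of that branch and the second in level, had 6.201 ± 1.24 and 8.38 ± 1.09 TPM and did not pass in either fit, nor did WNT8A, a streak ligand at 4.41 ± 1.27 and 3.17 ± 0.353 TPM. The summed level of the 19 ligands was 60.4 to 81.3 TPM in the wild type and 85.5 to 92.9 TPM after knockdown, higher without overlap. Most of that sum was WNT3 (43.9 to 55.1 and 66.8 to 70.3 TPM), so it does not speak for the ligands as a class.

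WLS, which carries Wnt proteins to the cell surface, had 44.2 ± 5.05 TPM in the wild type and 30.1 ± 4.37 TPM after knockdown (SD, n = 3 for both), and PORCN, which attaches their lipid, had 23.9 ± 5.07 and 16.5 ± 2.97 TPM. Neither passed (limma adjusted p = 0.104 and 0.262), and both fell with the replicate block (0.00458 and 0.00984). Norrin (NDP), the ligand of FZD4, was listed at 0 in all 6 libraries. Of the R-spondins RSPO4 alone was tested, at 1.53 ± 0.236 TPM in the wild type and 0.864 ± 0.207 TPM after knockdown, and it did not pass in either fit. RSPO3 had at most 0.308 TPM and RSPO1 at most 0.101 TPM.

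Of 10 co-receptor genes 9 were tested and 1 fell, ROR2, the co-receptor of WNT5A. ROR2 had 187, 196 and 161 TPM in the wild type and 125, 122 and 107 TPM after knockdown, and the groups stood apart. Its log2 change was -0.61 (SE 0.11, limma adjusted p = 0.0351, and 0.0601 without the trend in limma). Without wild-type replicate 1 or 2, or any 1 knockdown replicate, the limma adjusted p of ROR2 lay between 0.0925 and 0.168. ROR1, of the same list, had 17.7 ± 1.74 TPM in the wild type and 21.7 ± 1.16 TPM after knockdown (SD, n = 3 for both). Its mean was thus higher after knockdown, but it did not pass in either fit (log2 change 0.28, limma adjusted p = 0.285, with the block 0.0719). The beta-catenin co-receptors LRP5 and LRP6 had log2 changes of -0.04 (95% interval -0.33 to 0.25) and 0.01 (-0.43 to 0.45). PTK7 and RYK, further Wnt co-receptors, had 138 ± 11.4 and 73.95 ± 10.96 TPM in the wild type and log2 changes of 0.01 and 0.12. ADGRA2, an adhesion receptor that works with RECK in WNT7 signalling, had 4.08 ± 0.823 and 7.11 ± 1.29 TPM and rose with the block (limma adjusted p = 0.115 without it, 0.0141 with it).

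Of 7 genes that control Frizzled turnover or export, 6 were tested and 1 fell, LGR5, an R-spondin receptor and Wnt target. It had 5.64, 4.84 and 4.89 TPM in the wild type and 2.36, 2.08 and 2.14 TPM after knockdown, and the groups stood far apart. Its log2 change was -0.94 (SE 0.14, limma adjusted p = 0.0166). With any 1 library other than wild-type replicate 3 left out, the limma adjusted p lay between 0.0571 and 0.101. SHISA2 and SHISA3, of a family that holds Frizzled proteins in the endoplasmic reticulum, had 143 ± 37.04 and 18.4 ± 3.29 TPM in the wild type and 89.3 ± 25.4 and 12.2 ± 2.61 TPM after knockdown. Both fell with the replicate block (limma adjusted p = 0.0119 and 0.0238, against 0.267 and 0.201 without it). The ligases RNF43 and ZNRF3 did not pass in either fit, with log2 changes of 0.19 and 0.12. LGR4, the LGR gene of highest level here, had a log2 change of 0.07 (95% interval -0.36 to 0.50).

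Secreted antagonists changed in both directions, with 1 higher and 2 lower of 8 tested. SFRP1 and SFRP2 are soluble proteins with a Frizzled-like domain that bind Wnts. SFRP1 had 523, 610.3 and 472 TPM in the wild type and 341, 308 and 291 TPM after knockdown, and fell (log2 change -0.76, limma adjusted p = 0.0202). SFRP2 had 306, 333 and 271 TPM in the wild type and 493, 532 and 460.2 TPM after knockdown, and rose (log2 change 0.71, limma adjusted p = 0.0196). The groups did not overlap in either gene, and the changes were opposite. CER1, which binds Nodal and BMP proteins and is also among the endoderm markers, fell (log2 change -0.49, limma adjusted p = 0.0406). The CER1 call was lost with median-ratio scaling (0.1200), quantile normalization (0.184), no trend (0.0703), a filter at a mean of 5 TPM (0.0507) and without each 1 library, where the limma adjusted p lay between 0.0544 and 0.1998. The SFRP1 call was lost without any 1 library other than wild-type replicate 3 (between 0.0561 and 0.116). The SFRP2 call was lost without wild-type replicate 1, knockdown replicate 1 or knockdown replicate 2 (between 0.0746 and 0.116). FRZB (log2 change -0.76) and DKK3 (-0.32) fell with the replicate block (limma adjusted p = 0.0221 and 0.0405, against 0.0817 and 0.327 without it).

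**Figure D4:**
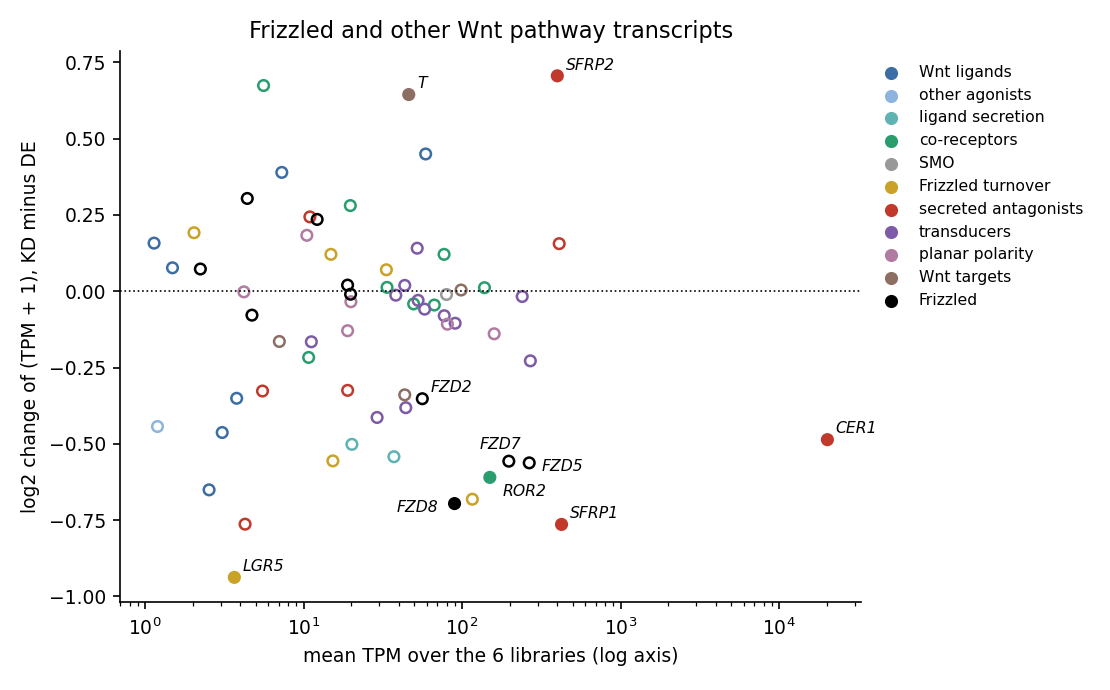
Log2 change of TPM + 1 (KD, knockdown, minus DE, wild type) against the mean TPM over the 6 libraries (log axis) for the Frizzled genes and the other tested genes of the Wnt lists, coloured by role and filled where the limma adjusted p over all genes was under 0.05 without a block. FZD8 (-0.70) lies near ROR2 (-0.61) and SFRP1 (-0.76) in its change, and SFRP2 (0.71) and T (0.64) lie above 0.

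Inside the cell, 0 of 12 transducers tested passed without the block. The dishevelled genes DVL1, DVL2 and DVL3, which bind Frizzled tails, had log2 changes of -0.08, -0.06 and -0.10. CTNNB1 (beta-catenin) had 292 ± 54.7 TPM in the wild type and 248 ± 33.5 TPM after knockdown and did not pass in either fit (limma adjusted p = 0.649, with the block 0.0667). APC, a scaffold of the complex that degrades beta-catenin, and TCF7L2, a factor that beta-catenin binds, fell with the replicate block (log2 changes -0.41 and -0.38, limma adjusted p = 0.0189 and 0.0118, against 0.109 and 0.0935 without it). TCF7L1, the TCF gene of highest level here at 241 ± 8.91 TPM in the wild type, had a log2 change of -0.02 (95% interval -0.22 to 0.18). Of 6 planar polarity genes tested 0 passed in either fit, with VANGL2 the highest at 167 ± 17.5 and 152 ± 6.51 TPM (SD, n = 3 for both), followed by VANGL1 and CELSR3 with log2 changes of -0.11 and -0.03.

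Of 4 Wnt targets tested, T (brachyury) rose, and AXIN2 fell with the replicate block. T had 35.1, 39.05 and 33.3 TPM in the wild type and 56.1, 58.6 and 54.5 TPM after knockdown, a rise of 0.64 on the log2 scale (limma adjusted p = 0.0196). Without wild-type replicate 1 or any 1 knockdown replicate, the limma adjusted p of T lay between 0.0577 and 0.128. AXIN2, a general read-out of beta-catenin activity, had 48.8 ± 5.06 and 38.2 ± 1.75 TPM (SD, n = 3 for both), with a log2 change of -0.34 (limma adjusted p = 0.177, with the block 0.0224). SP5 had a log2 change of 0.00 (95% interval -0.47 to 0.47). SMO, the Hedgehog transducer of the same receptor class as the Frizzled genes, had 80.03 ± 14.4 TPM in the wild type and 79.1 ± 10.1 TPM after knockdown. Its log2 change was -0.01 (95% interval -0.39 to 0.37, with the replicate block -0.17 to 0.15).

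For the 3 Frizzled genes with the largest changes, the genes most alike over the 6 libraries were sought among 11759 genes of at least 5 mean TPM, by Pearson's r of log2(TPM + 1). FZD8 was most like SFRP1 (r = 0.998), CPE, which encodes a peptide-processing enzyme, and C1orf115. FZD5 was most like CD63, SLC25A44 and PVRL2 (r = 0.999 for each), and FZD7 was most like FAM174B, LHFPL2 and EXOC6 (r = 0.996 to 0.997). The log2 changes were -0.76, -0.83 and -0.60 in the FZD8 set and -0.27, -0.10 and -0.27 in the FZD5 set. These correlations are a description over 6 libraries, which share the group difference and the low values of replicate 3.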

How the data were processed

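Total RNA of 3 DE and 3 KD libraries was sequenced. The authors deposited TPM for 58830 genes, each library summing to 1000000. HISAT2 2.1.0, featureCounts, DESeq2 and GRCh38 are listed, without roles, per the submitters' processing notes. No source used here states the annotation, strand or filters. More mitochondrial RNA in a library lowers every other TPM of it.

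TPM multiplied by GENCODE 29 exon length gave whole reads (within 0.02) for 88.6% to 89.5% of low values (under 50 reads) of 37138 matched rows, and for all 60 Frizzled values. Depth rests on these reads. Intervals are limma's.

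Genes at 1 TPM or more in 3 or more libraries were tested as log2(TPM + 1), which understates changes of low genes, by limma 3.58.1 in R 4.3.3 (group as the term, eBayes with trend, 2-sided, Benjamini-Hochberg over all 17711 genes, threshold 0.05). The fit without the block was checked on simulated data that had no replicate structure and no mitochondrial shift, so the check does not cover those. Same-numbered DE and KD libraries correlated, after removal of group means, at 0.108, 0.144 and 0.347 over genes. All exceed the limit of 0.1 for pairs, which comes from the data and not from a label. The unmatched DE replicate 2 and KD replicate 1 reached 0.121, so values with the block assume pairing. Summaries, exact tests and figures used Python 3.11.15, scipy 1.17.1 and matplotlib 3.10.9.

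Members, lists and tests were chosen with earlier results of these data known. Named genes are all Frizzled genes and, per list, members past the threshold or else up to 3 of the highest level. Further members of these lists, named for the replicate block or their role, were chosen after their values were seen. The alternatives were other pseudocounts, filters, scalings, variance priors and thresholds, the replicate block and left-out libraries. After the data were seen, voom on estimated reads and scaling combined with the block were added.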

Additional observations from a re-analysis of the deposited data

How the results depend on the processing

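The directions of FZD2, FZD3, FZD5, FZD7, FZD8 and FZD10 held in every alternative run, whereas those of FZD1, FZD4, FZD6 and FZD9, all near 0, did not. For limma on TPM, the replicate block, other filters, variance priors and the threshold leave every log2 change as it is. Only the scalings, pseudocounts, voom and left-out libraries can alter a direction. Without single libraries the log2 change ran from -0.20 to 0.037 for FZD1, -0.22 to 0.18 for FZD4, -0.18 to 0.11 for FZD6 and -0.0395 to 0.27 for FZD9. FZD4 was at -0.069 without replicate 3 of both groups, and FZD6 at 0.0023 without mitochondrial genes, with or without the block. The number of Frizzled genes that fell, 1 as reported, was 4 with the replicate block, without replicate 3 of both groups, with voom and the block, and with median-ratio scaling or TPM without mitochondrial genes combined with the block. It was 3 with median-ratio scaling, 2 with quantile normalization, TPM without mitochondrial genes or voom, and 0 with no filter (more genes tested) or at an adjusted p of 0.01. It ran from 0 to 1 without single libraries. FZD3 rose with voom and the block (limma adjusted p = 0.00603), the 1 rise seen in any alternative.

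Among all genes, 579 passed, and 239 did with no filter, 1735 with quantile normalization, 1753 with median-ratio scaling, 1700 without mitochondrial genes, 2215 with the replicate block, 1212 without replicate 3 of both groups, 106 at an adjusted p of 0.01, and 87 to 610 without single libraries. With voom, run only on the tested genes matched by name to GENCODE 29, 1848 passed, and with voom and the block 4324. With median-ratio scaling or TPM without mitochondrial genes and the block, 2877 and 2878 passed. The voom counts of Wnt genes that follow likewise cover matched genes alone. The other Wnt genes past the threshold, 6 as reported, were 1 with no filter, 15 with quantile normalization, with median-ratio scaling and without mitochondrial genes, 18 with the replicate block and with voom, 26 with voom and the block, 21 with either scaling and the block, 13 without replicate 3 of both groups, 0 at 0.01, and 0 to 6 without single libraries. Fits without a library have fewer samples, and the cause of the other shifts was not tested. The summed Frizzled ratio of 0.703 stayed between 0.632 and 0.770 in the alternatives run. All 579 calls also passed with the replicate block, which by design leaves each log2 change, and so its direction, as it is. FZD9 rested on the fewest estimated reads of the family, 25 to 43 per library.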
